A study of Rattus norvegicus with 24 samples.

Results

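The genes described here are 10 of the protein-coding genes of the mitochondrial genome, all of which encode core subunits of the respiratory chain or of ATP synthase. They were chosen by name and identifier and not by their values, though with earlier results of these data known. All 10 were found among the 30560 gene identifiers of the count files. The samples were polyadenylated RNA of whole lung and whole liver from wild-type Sprague Dawley rat pups, which were nursed by their mothers. One of 3 treatments was injected under the skin once a day for 5 days from postnatal day 1: 2.5% ethanol as vehicle, 0.1 mg/kg of dexamethasone, or 1.25 mg/kg of desisobutyryl ciclesonide. Both organs were taken at postnatal day 6, 24 hours after the last injection, which gave 24 libraries in 6 groups of 4. Both drugs are glucocorticoid receptor agonists, desisobutyryl ciclesonide being the form into which esterases convert the prodrug ciclesonide, and their doses were not matched. Each library is whole-organ RNA from many cell types, and the labels do not name litters, so p-values measure the spread between these libraries.

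Mitochondria keep a small circular genome that encodes the membrane-embedded core of the machinery for oxidative phosphorylation, while nuclear genes encode the remaining subunits. The mitochondrial genes are transcribed as long RNAs that run over many genes and are then cut into separate messages, so their levels are set both by shared transcription and by the processing and stability of each message. Complex I oxidizes NADH, complex III passes electrons on to cytochrome c, complex IV hands them to oxygen, and ATP synthase uses the resulting proton gradient to make ATP.

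In complex I, mt-Nd1 (ENSRNOG00000030644), mt-Nd2 (ENSRNOG00000031033), mt-Nd4 (ENSRNOG00000029707), mt-Nd5 (ENSRNOG00000029971) and mt-Nd6 (ENSRNOG00000029042) encode subunits of the proton-pumping membrane arm. The gene mt-Cyb (ENSRNOG00000031766) encodes cytochrome b of complex III. The catalytic core of complex IV, cytochrome c oxidase, is encoded by mt-Co1 (ENSRNOG00000034234), mt-Co2 (ENSRNOG00000030371) and mt-Co3 (ENSRNOG00000030700). The gene mt-Atp6 (ENSRNOG00000031979) encodes the proton channel subunit of ATP synthase. Unlike the other 9, mt-Nd6 is read from the opposite DNA strand, and its message is known to lack a long poly(A) tail, so selection of polyadenylated RNA captures it poorly. Gene lengths and sequences of these genes were not used here, so no level is compared between genes. Copies of mitochondrial DNA in the nuclear genome, overlapping genes and the unstated strand setting of the counting leave each gene's count uncertain to an unknown degree.

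Gene counts per library ran from 15397992 to 27881158. All 10 genes passed the expression filter in both tissues, and mt-Nd6 had the fewest counts. Reads that could not be aligned made up 2.64% ± 0.287 (SD, n = 4) of vehicle lung libraries and 1.08% ± 0.158 of desisobutyryl ciclesonide lung libraries. The liver means were 2.69% and 1.10%. Reads outside any counted gene made up 16.2% ± 0.556 of vehicle, 19.8% ± 0.931 of dexamethasone and 13.4% ± 0.241 of desisobutyryl ciclesonide lung libraries. For liver these means were 10.5%, 11.5% and 7.29%. Reads aligned to more than 1 place made up 3.09%, 2.66% and 3.68% of these liver libraries on average. Reads that fell on more than 1 gene made up 2.77%, 3.28% and 2.70%. The lung means of these classes were 2.90%, 2.72% and 3.78%, and 1.33%, 1.36% and 1.21%. Neither class overlapped between dexamethasone and vehicle livers, and their part in the liver values was not tested. The files of the desisobutyryl ciclesonide libraries carry a numbering of their own, so that drug and whatever the numbering stands for cannot be told apart. Among vehicle and dexamethasone files, replicates 1 and 2 are also numbered apart from replicates 3 and 4. What this stands for is not stated. The identifiers could not be matched to gene names here, so the labelled organs could not be checked against marker genes and the nuclear-encoded subunits could not be counted.

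The 10 mitochondrial genes took a larger part of the counts in liver than in lung, and in liver they took more after dexamethasone. In vehicle liver their summed share of gene counts was 7.89%, 8.01%, 9.04% and 8.59% in replicates 1 to 4. After dexamethasone it was 13.2%, 15.5%, 11.8% and 11.0% (replicate 4). Every dexamethasone liver lay above every vehicle liver. The mean rose from 8.38% ± 0.533 to 12.9% ± 1.97 (SD, n = 4), a ratio of 1.54, with p = 0.0286 by a two-sided exact permutation test and 0.0667 after adjustment over 7 comparisons. With 4 libraries against 4, 0.0286 is the smallest p this test can give, so no comparison of the share could pass the adjusted threshold of 0.05 unless more of the 7 comparisons had reached that minimum. In these bulk samples, a change in the number of cells of a type and a change in RNA per cell, of these or other genes, cannot be told apart.

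After desisobutyryl ciclesonide the liver share was 7.76%, 8.76%, 6.59% and 7.77%. These values overlapped those of the vehicle livers, and the mean of 7.72% ± 0.887 was 0.921 times that of vehicle (exact permutation p = 0.229, adjusted p = 0.267). In lung the share was 3.55%, 3.57%, 4.60% and 3.40% with vehicle, 2.74%, 3.79%, 3.71% and 3.96% with dexamethasone, and 2.74%, 2.47%, 2.51% and 3.55% with desisobutyryl ciclesonide. The dexamethasone lungs ran from 2.74% to 3.96% and overlapped the vehicle lungs, which ran from 3.40% to 4.60%, with means of 3.55% ± 0.550 and 3.78% ± 0.551 (exact permutation p = 0.571). In 3 of 4 desisobutyryl ciclesonide lungs the share lay below every vehicle lung, and replicate 4 lay within the vehicle range. The mean of 2.82% ± 0.504 was 0.746 times that of vehicle (exact permutation p = 0.0857, adjusted p = 0.12). The 95% Wilson interval of a library's share was at most 0.0169 percentage points to either side, which covers counting error only and is far narrower than the spread between pups.

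**Figure D1:**
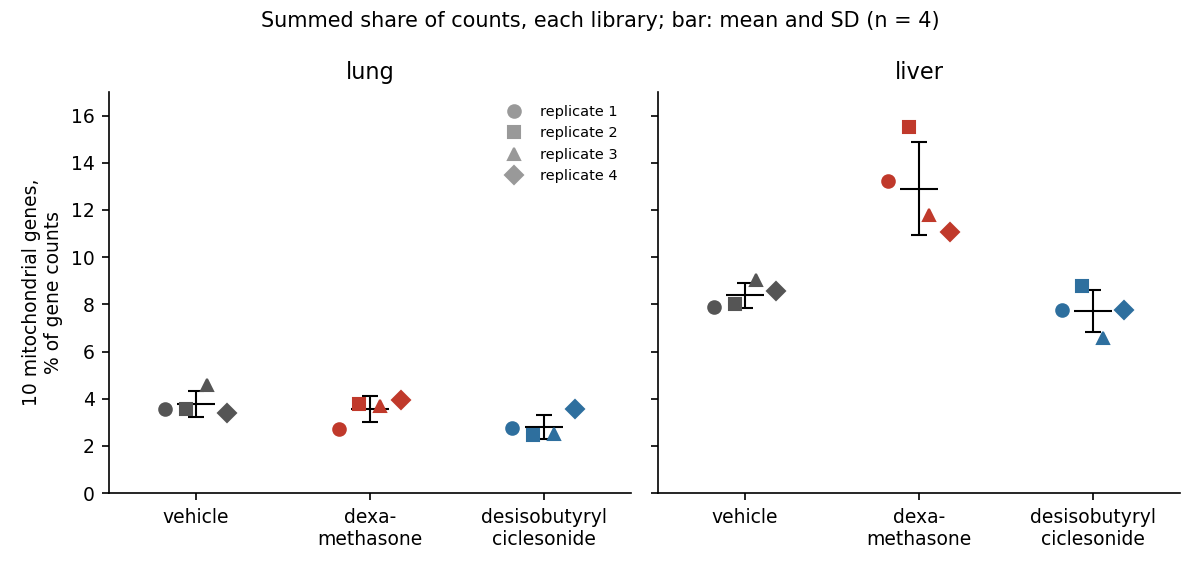
Summed share of gene counts in the 10 mitochondrial genes (vertical axis, percent) for each library, by treatment in lung (left) and liver (right); symbols mark the replicate number, and bars give the mean and SD of 4 libraries. The 4 dexamethasone livers, from 11.0% to 15.5%, sit above all other libraries, and the lung groups overlap.

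In vehicle pups the share was 3.78% in lung and 8.38% in liver, 2.22 times as much in liver, with no overlap (exact permutation p = 0.0286, adjusted p = 0.0667). Both this test and the edgeR test that follows took lung and liver libraries as independent, although same-numbered ones are taken below as the same pup. Per gene, all 10 were lower in lung than in liver by the edgeR quasi-likelihood test over all 24 libraries, against 31.1% of 16477 genes tested that were lower and 39.8% that were higher. The CPM of all 10 did not overlap between the organs, as for 68.6% of all genes tested. The log2 differences ran from -1.74 for mt-Nd5 to -3.71 for mt-Nd6, with a median of -2.45 beside 0.18 over all genes tested. Scaled levels, given as counts per 1e6 counts of scaled library size (CPM), for mt-Nd6 were 7.03, 6.22, 10.3 and 5.49 in vehicle lung and 51.4, 46.4, 158 and 123 in vehicle liver. The size of these differences rests on the scaling between organs, which differ widely in composition. With plain library sizes the log2 differences ran from -0.49 to -2.44, and the median over all genes tested was 1.42. The 10 genes were below the median under both scalings. This was fixed in advance, because a change of scaling moves all genes by about the same amount.

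Dexamethasone raised the mitochondrial messages of the liver across all 4 complexes. By the edgeR quasi-likelihood test with Benjamini-Hochberg adjustment over 13734 genes, 9 of the 10 genes rose and none fell, where 22.5% of all genes tested rose and 24.9% fell. The median log2 change of the 10 genes was 0.92, beside -0.02 over all genes tested. For the same 9 genes, every dexamethasone liver lay above every vehicle liver in CPM on the within-tissue scale used from here on, a separation in either direction that 42.5% of all genes tested showed.

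Among the complex I genes, mt-Nd4 had 4641, 4564, 5938 and 5654 CPM in vehicle livers and 12361, 15046, 10372 and 8291 CPM in dexamethasone livers. It rose 2.22-fold (log2 1.15, SE 0.206, adjusted p = 0.000354), with replicate 4 the lowest of the treated livers and still above the highest vehicle liver. The levels of mt-Nd5 were 1819, 1716, 1545 and 2023 CPM with vehicle and 4015, 4281, 4271 and 3055 CPM with dexamethasone. This was a 2.20-fold rise (log2 1.14, SE 0.182, adjusted p = 0.00014). Levels of mt-Nd2 varied least among vehicle livers, at 2877, 3007, 3064 and 2920.1 CPM. With dexamethasone it had 6609.6, 6436, 5368 and 5277 CPM, a 2.00-fold rise (SE 0.163 on the log2 scale, adjusted p = 0.00016). The gene mt-Nd1 rose by a log2 change of 0.88 (adjusted p = 0.00143).

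The cytochrome b gene mt-Cyb had 6401, 6171, 6879 and 6485 CPM in vehicle livers and 12002, 15852, 9519 and 7864 CPM in dexamethasone livers, a log2 change of 0.80 (SE 0.215, adjusted p = 0.00637). In complex IV, the catalytic subunit gene mt-Co1 had 27549, 28421, 36325 and 32691 CPM with vehicle and 55862, 70719.7, 45197 and 43929.5 CPM with dexamethasone. Its log2 change was 0.79 (SE 0.209, adjusted p = 0.006), and dexamethasone replicate 2 was the highest library. The same library was also the highest for mt-Co2 and mt-Co3, which rose by log2 changes of 0.95 (adjusted p = 0.00299) and 0.80 (adjusted p = 0.0101). The ATP synthase gene mt-Atp6 had 7650.4, 6817, 8578 and 7173 CPM with vehicle and 14806, 20697, 12484 and 11418 CPM with dexamethasone, a log2 change of 0.98 (SE 0.206, adjusted p = 0.00124). The smallest of the 9 rises was in mt-Co1 and the largest in mt-Nd4, and their 95% intervals, from 0.34 to 1.23 and from 0.71 to 1.59, overlapped.

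The light-strand gene mt-Nd6 was the exception in liver. Its levels were 33.2, 29.95, 102 and 80.5 CPM with vehicle and 66.5, 105, 76.0 and 71.6 CPM with dexamethasone. Vehicle replicates 3 and 4 lay within the treated range while replicates 1 and 2 lay below it. This split follows the file numbering given above, whose part was not tested. The log2 change of 0.38 did not pass the test (SE 0.364, 95% interval from -0.42 to 1.17, adjusted p = 0.42). That interval includes the median change of the 10 genes. The rise of the other 9 genes held in every alternative analysis, and the median change of the 10 was lowest with plain library sizes, at 0.66. With plain library sizes the median over all genes tested moved from -0.02 to -0.26. The calls over all genes went from 3096 higher and 3426 lower to 1950 higher and 4680 lower. A change of scaling moves all genes by about the same amount, so it cannot test how far the 10 genes stood from the median gene.

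**Figure D2:**
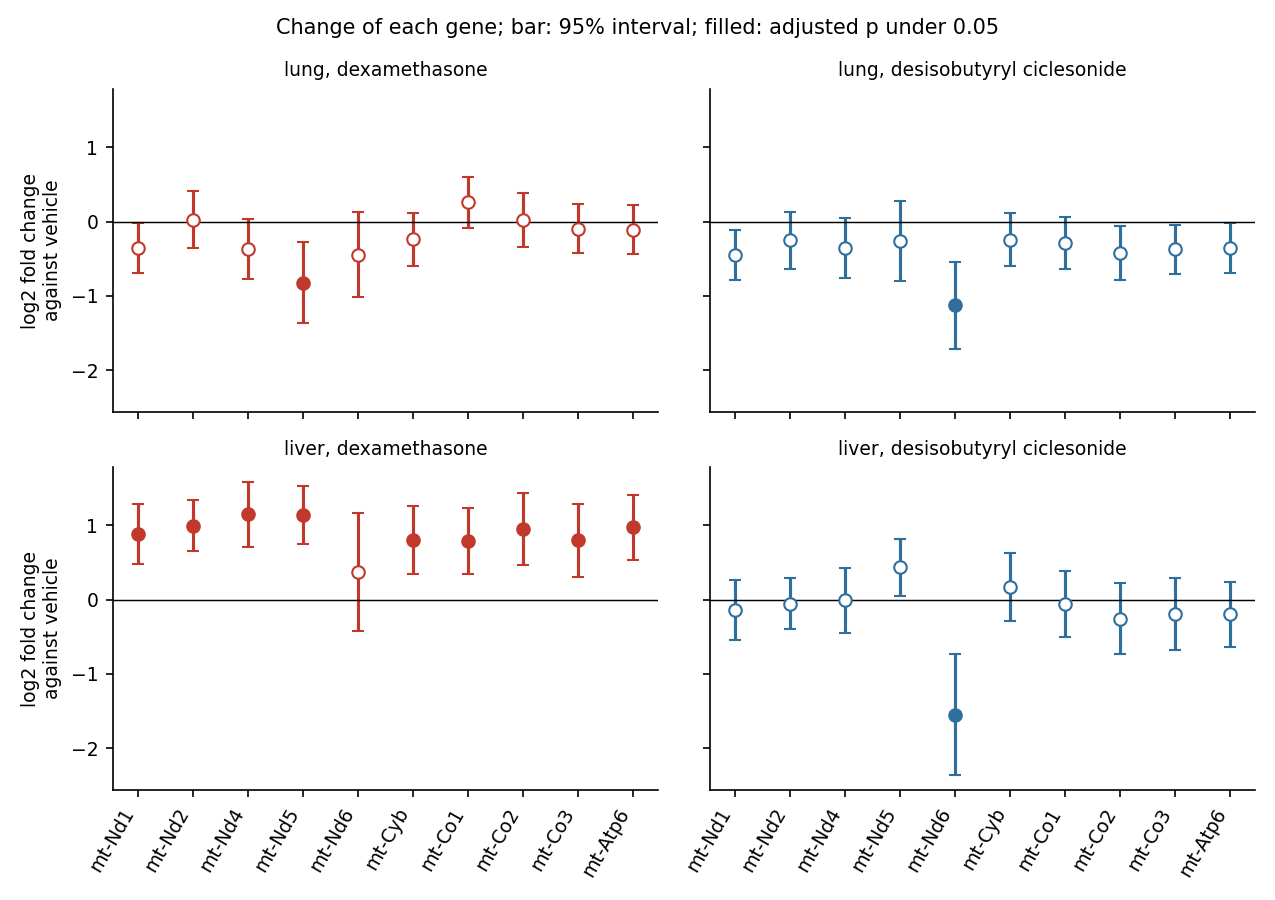
Log2 fold change of each of the 10 genes against vehicle (vertical axis) for each drug in lung (top) and liver (bottom), from the edgeR fit of each tissue; bars are 95% intervals, and filled points have an adjusted p under 0.05. In dexamethasone liver 9 of 10 points are filled and above 0, and with desisobutyryl ciclesonide mt-Nd6 is the filled point in each tissue, at -1.13 in lung and -1.55 in liver.

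In liver mt-Nd6 was lower with desisobutyryl ciclesonide, and the other 9 genes were without a call. By the same edgeR test, 1 of the 10 genes fell and 0 rose, where 2.43% of 13734 genes fell and 2.09% rose. The levels of mt-Nd6 were 27.4, 18.5, 14.9 and 23.3 CPM, all below the lowest vehicle liver at 29.95 CPM. It was the 1 gene of 10 without overlap, where 15.7% of all genes tested did not overlap. The fall was 2.92-fold (log2 -1.55, SE 0.375, adjusted p = 0.0407). The call depended on the vehicle livers that were high: the log2 change was -1.19 without vehicle replicate 3 (adjusted p = 0.10) and -1.39 without vehicle replicate 4 (adjusted p = 0.0961). It was also lost without each of the 4 treated livers, with adjusted p from 0.053 to 0.103. Of the other genes, mt-Nd5 had 2471, 2942, 1956 and 2240.4 CPM, overlapping vehicle, with a log2 change of 0.44 that missed the threshold (SE 0.181, adjusted p = 0.182). The remaining 8 log2 changes lay between -0.26 for mt-Co2 and 0.17 for mt-Cyb, and the median of the 10 was -0.10 beside -0.01 over all genes tested. The 95% interval of mt-Co1 ran from -0.50 to 0.38 and that of mt-Nd4 from -0.44 to 0.42, so moderate changes either way were not detectable with 4 libraries a group. The file numbering and the shares of unaligned reads and of reads outside any counted gene moved with this drug in both tissues. Their part in these values was not tested.

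In lung, dexamethasone lowered mt-Nd5, and the other 9 genes did not pass the test. Of the 10 genes 1 fell and 0 rose, where 28.7% of 16108 genes tested fell and 26.9% rose. The levels of mt-Nd5 were 1201, 1278, 1680.0 and 1008 CPM in vehicle lungs and 466, 604, 941 and 915 CPM in dexamethasone lungs. All 4 treated lungs lay below all 4 vehicle lungs, and treated replicates 1 and 2 were lower than treated replicates 3 and 4. That split among treated lungs follows the file numbering too, and its part was not tested. The fall was 1.77-fold (log2 -0.82, SE 0.249, adjusted p = 0.0136). Levels of mt-Nd1 were 2169, 2062, 2679.7 and 1863 CPM with vehicle and 1403, 1842, 1799 and 1822 CPM with dexamethasone. These groups did not overlap either, but the log2 change of -0.35 missed the threshold (SE 0.156, adjusted p = 0.0687). For the 10 genes together the median log2 change was -0.17, beside -0.01 over all genes tested, and 2 of 10 did not overlap between groups, where 50.3% of all genes tested did not.

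Lung dexamethasone replicates 3 and 4 stood apart from the other lung libraries in a set of 25 genes. Each of these genes had, in both of the pair, 4-fold or more of its level in any other lung library. They summed to 1575 and 4758 CPM in the pair and to between 30.7 and 68.2 CPM elsewhere. That a gap exists was fixed by the rule that chose the genes. Without the pair the log2 change of mt-Nd5 was -1.26 (adjusted p = 0.00218), that of mt-Nd1 was -0.42 (adjusted p = 0.097), and mt-Nd5 was again the 1 gene of 10 that passed. In that fit 4294 of 16529 genes tested fell and 4203 rose. Levels of mt-Co1, in contrast to mt-Nd5, were 11970, 12279, 16431 and 12583 CPM with vehicle and 13032, 18739.5, 14910 and 17172 CPM with dexamethasone. The groups overlapped, and its log2 change was 0.26 (SE 0.16, adjusted p = 0.182).

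**Figure D3:**
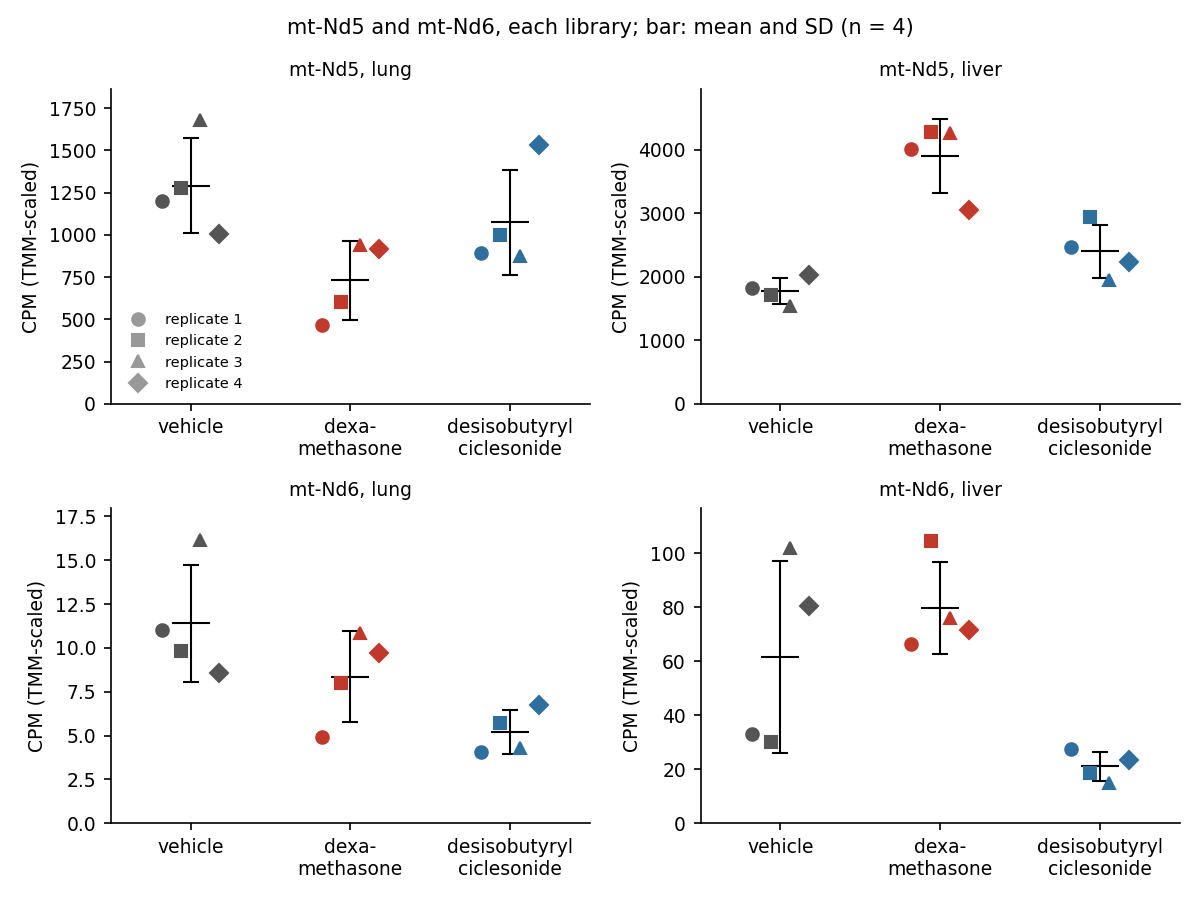
CPM of mt-Nd5 and mt-Nd6 (vertical axes) in each library by treatment, for lung and liver; symbols mark the replicate number, and bars give the mean and SD of 4 libraries. The dexamethasone points of mt-Nd5 lie below vehicle in lung (466 to 941 CPM) and above it in liver (3055 to 4281 CPM), and the desisobutyryl ciclesonide points of mt-Nd6 lie below vehicle in both tissues.

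In lung too mt-Nd6 was lower with desisobutyryl ciclesonide, and all 10 log2 changes were negative there. Of the 10 genes 1 fell and 0 rose by the edgeR test, where 12.3% of 16108 genes tested fell and 11.8% rose. The levels of mt-Nd6 were 11.0, 9.80, 16.2 and 8.59 CPM with vehicle and 4.08, 5.71, 4.28 and 6.76 CPM with the drug. No treated lung reached the lowest vehicle lung, which held for 1 gene of 10 where 33.2% of all genes tested did not overlap, and the fall was 2.19-fold (log2 -1.13, SE 0.274, adjusted p = 0.0103). This call held without any single library, with log2 changes from -1.28 to -0.92. The complex I gene mt-Nd1 came next, with 1566, 1432, 1356 and 2098 CPM, of which replicate 4 lay within the vehicle range. Its log2 change was -0.44 (SE 0.156, adjusted p = 0.054). The other 8 changes lay between -0.42 for mt-Co2 (adjusted p = 0.0872) and -0.24 for mt-Cyb, and the median of the 10 was -0.35 beside -0.01 over all genes tested. Replicate 4 was the highest of the 4 treated lungs for all 10 genes. Without it 6 of the 10 genes fell, where 1341 of 16370 genes tested fell and 1352 rose. The file numbering and the read shares given above moved with this drug, and their part in these values was not tested.

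The drugs were given at doses that were not matched, so the next values set these dose groups side by side and do not rank the compounds. In liver all 10 genes were lower with desisobutyryl ciclesonide than with dexamethasone by the edgeR test, where 22.5% of 13734 genes tested were lower and 23.8% higher. The log2 differences ran from -0.63 for mt-Cyb (adjusted p = 0.0244) to -1.92 for mt-Nd6 (adjusted p = 0.00152), with a median of -1.04 beside 0.00 over all genes tested. Levels of 9 genes, all but mt-Cyb, did not overlap between these groups, where 41.6% of all genes tested did not. The call of mt-Cyb was lost in some alternatives, with an adjusted p of up to 0.0886 without dexamethasone replicate 1 or 2 or desisobutyryl ciclesonide replicate 1. In lung 2 of the 10 genes, mt-Co1 and mt-Co2, were lower with desisobutyryl ciclesonide and 0 were higher, where 24.4% of 16108 genes tested were lower and 25% higher. The log2 difference furthest from 0 was that of mt-Nd6, at -0.69 (SE 0.273), which missed the threshold with an adjusted p of 0.0512. It passed in 3 of 8 other tools, scalings and filters and in 2 of 8 fits without a single library, with adjusted p from 0.0115 to 0.134 over these 16 fits. For mt-Co1 the desisobutyryl ciclesonide lungs had 10315, 9786, 9755 and 13746 CPM, and the log2 difference from dexamethasone was -0.55 (SE 0.161, adjusted p = 0.012). For mt-Co2 they had 2715, 2331, 2663 and 3897 CPM beside 3082, 4469.6, 3897 and 4353 CPM with dexamethasone. That log2 difference was -0.45 (SE 0.169, adjusted p = 0.0419). The call held in 2 of 8 fits without a single library, those without dexamethasone replicate 1 or desisobutyryl ciclesonide replicate 4, and the adjusted p reached 0.119 in the other 6. It was also lost without dexamethasone replicates 3 and 4 (log2 -0.38, adjusted p = 0.153). Replicate 4 of the desisobutyryl ciclesonide lungs lay within the dexamethasone range for both genes, and 0 of the 10 genes were without overlap, where 43.9% of all genes tested were. The difference for mt-Nd5 had the opposite sign, 0.55 (adjusted p = 0.0819), and passed without dexamethasone replicates 3 and 4 (log2 1.00, adjusted p = 0.00879).

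The make-up of the mitochondrial counts was then compared as each gene's percent of the summed counts of the 10 genes, which does not depend on how libraries are scaled. These percents are not corrected for gene length, and since they add up to the whole, a rise of 1 gene lowers the others. None of the 60 tests passed after adjustment, and the smallest possible exact permutation p of 0.0286 corresponded to an adjusted p of 0.0745 here. In lung the dexamethasone and vehicle groups did not overlap for 5 genes, where 36.1% of all genes tested did not overlap when scaled to the same total. Genes outside the 10 also move on this scale when that total changes, so such shares are no like background for the 10 genes. The percent of mt-Co1 was higher, 44.0% ± 2.47 against 36.8% ± 1.97 (SD, n = 4). That of mt-Nd5 was lower, 2.00% ± 0.524 against 3.54% ± 0.317. Lower too were mt-Nd1 (4.74% against 6.05%), mt-Nd4 (4.86% against 6.32%) and mt-Cyb (7.97% against 9.50%). The complex IV genes mt-Co2 and mt-Co3 and the ATP synthase gene mt-Atp6 overlapped between these groups.

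In dexamethasone liver mt-Nd4 was the 1 gene of 10 whose percent did not overlap with vehicle, at 7.97% ± 0.494 against 6.59% ± 0.362. On the same total 58.5% of all genes tested did not overlap. That total itself took 12.9% of gene counts here against 8.38% with vehicle, so this share cannot be set against the 1 of 10. Here mt-Nd5 took 2.77% ± 0.530 against 2.28% ± 0.387 in vehicle, and these values overlapped. With desisobutyryl ciclesonide 4 genes of liver did not overlap with vehicle, where 12.1% of all genes tested did not. The percents of mt-Nd5 (3.21% ± 0.416 against 2.28% ± 0.387) and mt-Cyb (9.73% ± 0.423 against 8.27% ± 0.516) were higher. Those of mt-Co3 (11.4% against 12.4%) and mt-Nd6 (0.0282% against 0.0753%) were lower. In desisobutyryl ciclesonide lung 2 genes did not overlap, where 24.1% of all genes tested did not: mt-Nd1 (5.58% against 6.05%) and mt-Nd6 (0.0181% against 0.0310%) were lower.

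Between the drug groups of unmatched dose, 6 genes did not overlap in lung, where 27.3% of all genes tested did not. With desisobutyryl ciclesonide mt-Nd1, mt-Nd4, mt-Nd5 and mt-Cyb took higher percents than with dexamethasone, and mt-Co1 and mt-Co2 took lower ones. For mt-Nd5 the percents were 3.68% ± 0.390 and 2.00% ± 0.524, and for mt-Co1 they were 37.9% ± 0.733 and 44.0% ± 2.47. In liver 5 genes did not overlap, where 62.2% of all genes tested did not. The total of the 10 genes differed between these groups too, so that share is no like background. There mt-Cyb was higher with desisobutyryl ciclesonide (9.73% against 7.74%), and mt-Co2 (9.76% against 11.6%), mt-Atp6 (8.84% against 10.2%), mt-Nd4 (6.91% against 7.97%) and mt-Nd6 (0.0282% against 0.0561%) were lower.

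**Figure D4:**
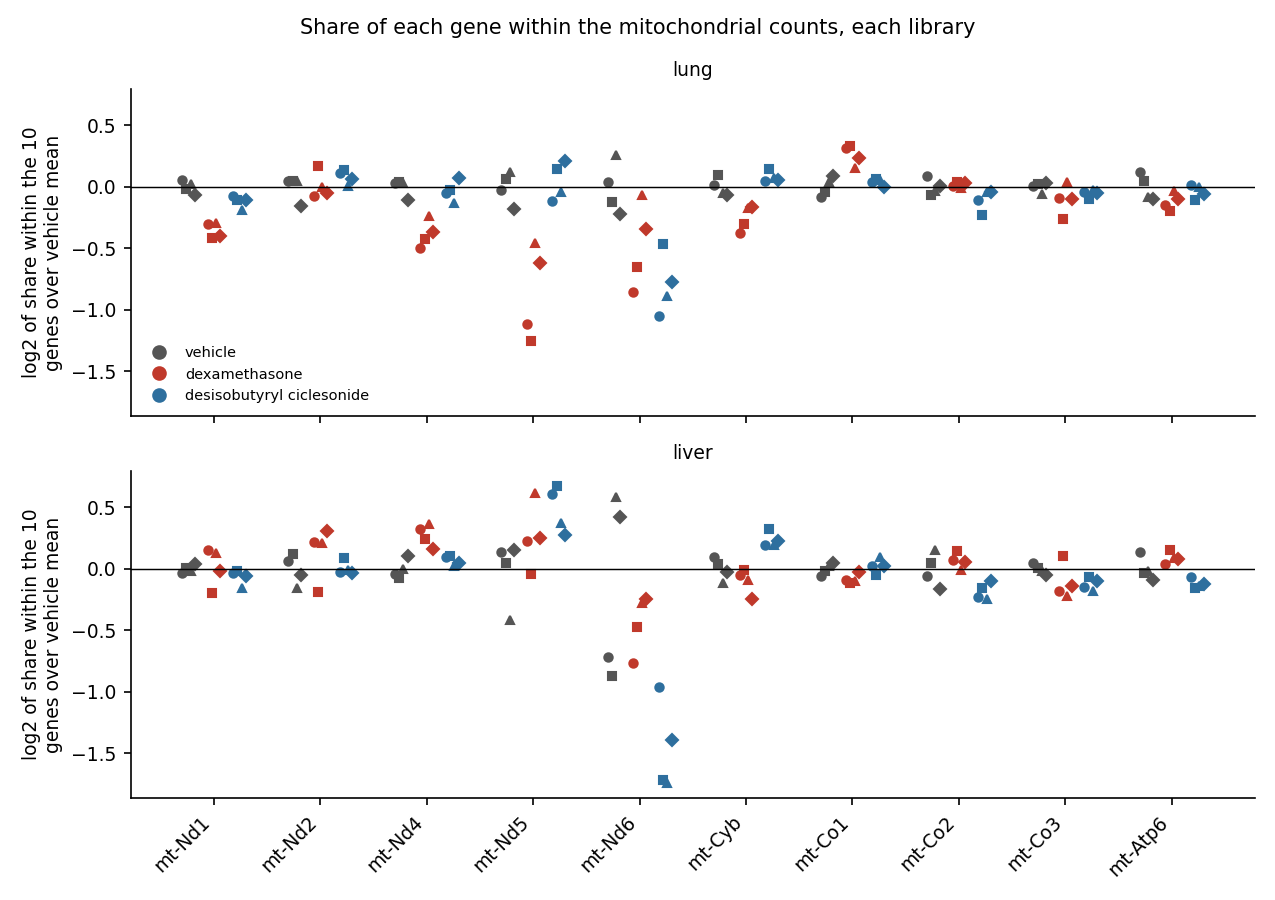
Log2 of each gene's percent of the summed counts of the 10 genes over its vehicle mean (vertical axis), for each library of lung (top) and liver (bottom); colors mark the treatment, symbols the replicate number, and the line at 0 is the vehicle mean. In dexamethasone lung mt-Nd5 lies lowest on average and mt-Co1 lies above 0, and mt-Nd6 is low with desisobutyryl ciclesonide in both tissues.

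The response to dexamethasone differed between the organs. In the edgeR fit of all 24 libraries, the lung change was lower than the liver change for 6 of the 10 genes and higher for none, where 13.8% of 16477 genes tested were lower and 14.9% higher. The largest difference was in mt-Nd5, at -1.94 on the log2 scale (SE 0.338, adjusted p = 0.000164), which fell in lung and rose in liver. It was followed by mt-Nd4 (-1.49, adjusted p = 0.0015), mt-Nd1 (-1.22, adjusted p = 0.00309), mt-Atp6 (-1.06, adjusted p = 0.0141), mt-Cyb (-1.02, adjusted p = 0.0217) and mt-Nd2 (-0.95, adjusted p = 0.0117). The other 4 genes did not pass, at -0.90 for mt-Co2 (adjusted p = 0.0537), -0.87 for mt-Co3 (adjusted p = 0.0591), -0.50 for mt-Co1 (adjusted p = 0.341) and -0.79 for mt-Nd6 (adjusted p = 0.225). Among 8 other tools, scalings and filters mt-Co2 passed in 5 and mt-Co3 in 4, with adjusted p down to 0.00734 and 0.00755, so their side of the threshold depended on the setting. They also passed in 3 and 2 of 16 fits without a single library. With the pup as a block, the same 6 genes passed, mt-Cyb least clearly (adjusted p = 0.0471), and mt-Co2 (adjusted p = 0.0687), mt-Co3 (adjusted p = 0.104) and mt-Nd6 (adjusted p = 0.0632) did not. The call of mt-Cyb was lost without lung vehicle replicate 3 (adjusted p = 0.0524) and without lung dexamethasone replicate 1 (adjusted p = 0.0604).

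Lung and liver libraries of the same number deviated together and were taken as 1 pup, which the labels do not state. The log2 ratio of the lung share to the liver share of the 10 genes was -1.16 ± 0.148 (SD, n = 4) in vehicle pups and -1.86 ± 0.357 in dexamethasone pups. The 4 ratios of each group did not overlap, and the difference of -0.71 had an exact permutation p of 0.0286, or 0.0571 after adjustment over 2 tests. In desisobutyryl ciclesonide pups the ratio was -1.46 ± 0.288, a difference of -0.30 from vehicle (exact permutation p = 0.114, adjusted p = 0.114). Per gene, 0 of the 10 differed in their response to that drug by edgeR, where 1.71% of genes tested were lower in lung and 1.68% higher. In the same comparison 1 of the 10 genes, mt-Nd5, had an unadjusted p under 0.05 (log2 -0.74, adjusted p = 0.255), and DESeq2 also called 0.

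Levels of the 10 genes were correlated among libraries of the same group, in liver less so for pairs with mt-Nd6. With the group mean removed from log2 CPM, the 36 pairs among the 9 genes other than mt-Nd6 had Pearson correlations from 0.66 to 0.98 over the 12 lung libraries, with a median of 0.92. In liver they ran from 0.25 to 0.98, with a median of 0.87. The 9 pairs that include mt-Nd6 ran from 0.68 to 0.93 in lung, with a median of 0.82, and from 0.10 to 0.61 in liver, with a median of 0.45. All these values share the library, its depth and its scaling, and correlations among other genes of these libraries were not computed for comparison. Among 13235 other genes tested in both tissues, the level of ENSRNOG00000009097 followed the summed CPM of the 10 genes most closely. Its correlations were 0.94 over 12 lung libraries and 0.92 over 12 liver libraries. Group means were not removed here, so differences between treatments enter these correlations. The levels that follow are part of what chose the genes. Its liver level was 97.9 ± 14.8 CPM with vehicle, 185 ± 28.4 CPM with dexamethasone and 110 ± 23.0 CPM with desisobutyryl ciclesonide (SD, n = 4). The next gene, ENSRNOG00000010224, had correlations of 0.84 and 0.87, and its liver level was 21.9 ± 9.15 CPM with vehicle and 87.3 ± 48.4 CPM with dexamethasone. Neither identifier could be matched to a name here.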

How the data were processed

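RNA-seq libraries of lung and liver from neonatal rats were analysed from the deposited files, which hold whole-number read counts per gene made by the authors, not normalized. Per the labels' protocols, polyadenylated RNA was selected and libraries were directional. Tools listed in the submitters' processing notes are HISAT2, HTSeq and cutadapt, with the build mRatBN7.2; versions and strand setting are not given in the sources used here. The 5 summary rows for unassigned reads, 16.8% to 31.8% of entries, were left out of library sizes and tests.

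Genes passing the default filter of edgeR 4.0.16 were scaled by TMM. A robust quasi-likelihood model was fitted per tissue (12 libraries), or over 24 libraries for differences between tissues, and p-values were adjusted by Benjamini-Hochberg over all genes tested, with a threshold of 0.05. CPM use the TMM-scaled library size. Summed shares and within-set percents were compared by two-sided exact permutation tests. All 10 genes are reported, plus the 2 other genes with the highest smaller correlation of both tissues. The genes and lists were chosen with earlier results of these data known. The 7 lists set by gene symbol could not be applied, because 0 of 30560 identifiers matched the name table (RefSeq, 47357 genes). Same-numbered lung and liver libraries correlated in their deviations from group means in 12 of 12 pairs (r from 0.114 to 0.303), each best with its own number. All 36 pairs of replicates differed by more than counting error, with a chi-square of at least 11.0 for each degree of freedom. The edgeR fit was also run on counts simulated from its own fitted spread, which checks the code and is no support for the results. Alternatives were DESeq2 1.42.0, limma-voom (limma 3.58.1), other scalings and filters, a replicate block and leaving out libraries.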

Additional observations from a re-analysis of the deposited data

Results flagged for a closer look

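Some libraries lay apart from the other 3 of their group for these genes, by a gap to the nearest value that exceeded Dixon's 95% critical value for 4 values. In all, 126 groups of values were looked at and 9 met this, where chance gives about 5%. The number is near what chance gives, and the groups share libraries, so they are not independent. Lung vehicle replicate 3 had the highest summed share of its group, 4.60% where the others had 3.40% to 3.57%, and the highest mt-Co1, 16431 CPM where the others had 11970 to 12583 CPM. Lung vehicle replicate 4 had the lowest percent of the 10 genes' counts in mt-Nd2 (4.53%, others 5.20% to 5.22%) and in mt-Nd4 (5.87%, others 6.44% to 6.51%). Lung dexamethasone replicate 1 was low in mt-Nd1 (1403 CPM, others 1799 to 1842 CPM), mt-Atp6 (2267 CPM, others 3125 to 3267 CPM) and mt-Nd4 (1276 CPM, others 1912 to 1955 CPM). Lung desisobutyryl ciclesonide replicate 4 was high in mt-Co1 (13746 CPM, others 9755 to 10315 CPM) and mt-Cyb (3693 CPM, others 2545 to 2677 CPM).

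The response to dexamethasone differed between lung and liver, by the interaction term of the edgeR fit of 24 libraries, for mt-Nd5 (-1.94 on the log2 scale), mt-Nd4 (-1.49), mt-Nd1 (-1.22), mt-Atp6 (-1.06), mt-Cyb (-1.02) and mt-Nd2 (-0.95).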

How the results depend on the processing

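The 9 liver rises with dexamethasone and the 10 lower levels in vehicle lung than in vehicle liver were found under all 16 alternatives each, and no called value reversed. Counts of called genes moved by 1.5 times or more in the cases that follow. In dexamethasone lung, 3 genes fell with plain library sizes, against 1, where 5249 of 16108 genes tested fell, against 4624. In desisobutyryl ciclesonide lung, 5 fell with plain library sizes, against 1, where 2890 of 16108 genes tested fell, against 1989. With TMM computed without the 10 genes, with limma-voom and with DESeq2 it was 2, where 1957, 2022 and 2208 of 16108 fell. Without single replicates the count ran from 1 to 6, with 2 without vehicle replicate 4 and 6 without treated replicate 4. In those 2 fits 1360 of 16354 and 1341 of 16370 genes tested fell. Between the drugs in lung, DESeq2 called 1 gene higher, against 0, where 4137 of 16108 genes tested were higher. Without dexamethasone replicate 3 it was also 1, where 3754 of 16308 were higher. A fit of only the groups compared called 1 lower, against 2, where 3542 of 15631 genes tested were lower. RLE factors, TMM without the 10 genes and DESeq2 called 3 lower, where 4049, 4051 and 4252 of 16108 were lower. That lower count ran from 1 to 5 without single replicates, with 5 without desisobutyryl ciclesonide replicate 4. There 3798 of 16370 genes tested were lower. Without dexamethasone replicates 3 and 4 it was 1 higher and 1 lower, where 3804 of 16529 were higher and 3800 lower. In desisobutyryl ciclesonide liver, the call of mt-Nd6 was lost (0 against 1) with no filter, in a fit of only the groups compared and without any of 6 single replicates, so the count ran from 0 to 1. Smaller moves were seen in 2 further counts. The genes with a lower dexamethasone response in lung numbered 5 to 8, against 6, and the genes lower with desisobutyryl ciclesonide than with dexamethasone in liver numbered 9 or 10, against 10, with mt-Cyb the gene lost. The causes were not tested.

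With plain library sizes the calls over all genes moved from 4337 higher and 4624 lower to 3734 and 5249 in dexamethasone lung. In desisobutyryl ciclesonide lung they moved from 1895 and 1989 to 1409 and 2890. They moved from 287 and 334 to 201 and 365 in desisobutyryl ciclesonide liver, from 3273 and 3085 to 4194 and 2037 between the drugs in liver, from 6551 and 5122 to 12093 and 1884 between the organs, and from 2455 and 2272 to 2818 and 1692 for the difference in dexamethasone response.

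Replicate numbers did not pair the treatments within a tissue: 9 of 24 pairs of same-numbered libraries had deviations correlated above 0.1, and 8 of 24 correlated best with their own number. With the replicate block the call of mt-Nd6 in desisobutyryl ciclesonide liver was lost (0 called, log2 -1.45, adjusted p = 0.109), and no other count of called genes moved. The count of mt-Nd6 limits its precision, since it held the fewest counts of the 10 genes.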
